A study of Mus musculus with 8 samples.

Results

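The RUNX factors Runx1, Runx2 and Runx3 and their shared partner Cbfb were followed in CD8 T cells of mice with and without interleukin-2. These 4 genes were taken by Entrez identifier from the 11723 genes of the deposited table, and all 4 were found. Wild-type (WT) BALB/c mice gave 4 libraries and interleukin-2 knockout (IL-2-KO) BALB/c mice gave 4, all at 12 days of age and with no treatment named in the labels. CD8 T cells, the killer T cells, were sorted from peripheral lymph nodes by flow cytometry, and total RNA was sequenced. In the design text of the series spleen is a further source and controls may be heterozygous, but the labels of the single samples say neither, and WT is written here after those labels. The knockout allele is not described in the sources used here, and no Cre or transgene is named. WT replicates 1 to 4 came from 115, 28.7, 1.3 and 1.3 M (1e6) cells of 5, 5, 3 and 2 pooled mice. The 115 M of WT replicate 1 is a high yield for lymph nodes of young mice; it was taken as labelled, and the grouping of libraries into over and under 2 M cells used below rests on these labels. IL-2-KO replicates 1 to 4 came from 26.7, 42.6, 1.1 and 0.4 M cells, with no pooling stated. Pooling hides the spread between single mice.

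RUNX proteins are transcription factors that recognise a short DNA motif through their Runt domain. Cbfb does not bind DNA itself; it pairs with each RUNX protein and strengthens its grip on DNA. In T cells, Runx1 is needed for development in the thymus and for the survival of naive cells, Runx3 is the main factor of the CD8 lineage and silences Cd4, and Runx2 is best known as the master regulator of bone formation, with a reported part in the persistence of memory CD8 T cells. The mouse RUNX genes each have a distal and a proximal promoter, and RUNX proteins can act on their own promoters.

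The promoters are shown because the 3 RUNX genes share letters there. RefSeq (GRCm38.p6) windows of 250 bases before to 50 after a transcription start held a distal and a proximal start for Runx1 and for Runx3 and a single start for Runx2 and for Cbfb. Any further start of Runx2 or Cbfb had no window here and was not searched. The longest run of letters common to the Runx2 window and the distal windows of Runx1 and Runx3 was 18 bases, and it holds the RUNX motif ACCACA 2 times. The sites follow with 4 bases on either side of the run, 5′ to 3′ on the gene's strand, with the motif in capitals.
Runx1 distal, chr16:92826027-92826052 (-): taaacaACCACAgaACCACAagttgg
Runx2, chr17:44814585-44814610 (-): caaacaACCACAgaACCACAagtgcg
Runx3 distal, chr4:135120505-135120530 (+): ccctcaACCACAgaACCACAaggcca
The shared run began 27 bases after the start in Runx1, 22 bases after it in Runx2 and 136 bases before it (position -136) in Runx3. Runx1 and Runx2 shared 22 bases in a row here. The run was present in 4 of 32851 RefSeq promoter windows (0.012%): those of Runx1, Runx2 and Runx3, and that of Gm16225, whose window overlaps the Runx3 window on the opposite strand. The run was defined from the Runx1, Runx2 and Runx3 windows, so its presence in them was fixed in advance. It was looked for after the values were known, and it is a description of letters, not of binding.

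The 250 bases before the Runx2 start and before the distal Runx3 start are given for context, again with the motif in capitals.
Runx2, chr17:44814628-44814877 (-): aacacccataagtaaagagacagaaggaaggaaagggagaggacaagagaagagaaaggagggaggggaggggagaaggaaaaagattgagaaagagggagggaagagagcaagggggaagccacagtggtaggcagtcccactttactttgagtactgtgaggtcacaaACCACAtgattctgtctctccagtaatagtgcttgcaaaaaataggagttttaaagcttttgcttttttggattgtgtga
Runx3 distal, chr4:135120395-135120644 (+): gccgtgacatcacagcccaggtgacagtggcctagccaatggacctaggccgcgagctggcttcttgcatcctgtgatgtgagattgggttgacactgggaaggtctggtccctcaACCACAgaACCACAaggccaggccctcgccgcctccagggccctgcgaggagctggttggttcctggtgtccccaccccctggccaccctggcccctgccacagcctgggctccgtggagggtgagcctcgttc
A motif of 6 letters, TGTGGT or TGCGGT on either strand, occurred in 7362 of the 32851 windows (22.4%), and at least 2 times in 941 (2.86%). The Runx2 window held 4 matches, and the distal windows of Runx1 and Runx3 held 2 each. The proximal windows of Runx1 and Runx3 and the window of Cbfb held 0, which says only that these letters are not in these windows.

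Levels below are counts per 1000000 of the TMM-scaled library size (CPM), and ± gives the SD over n = 4 libraries per group. The libraries held 11.9 to 18.4 M recovered counts, so a CPM of 1 rested on 11.9 to 18.6 counts. Changes were computed from log2(value + 0.5), which makes those of low genes look smaller, and were tested with limma, with Benjamini-Hochberg adjustment over 11530 genes and a threshold of 0.05. The summed level of 5 of 6 CD8 T cell markers was 4440 to 5250 CPM in WT and 3940 to 4730 in IL-2-KO, with Trac not analysed here. Il2 itself was listed at 5.72, 5.65, 6.25 and 5.91 CPM in WT and at 5.13, 7.32, 8.42 and 4.25 in IL-2-KO, and since the table has no values per exon, this does not check the genotype. WT replicate 2 and IL-2-KO replicate 3 carried more myeloid and dendritic transcripts than the other libraries. There, 5 of 10 such markers summed to 131 and 476 CPM, against 36.8 to 41.6 in the rest of WT and 43.5 to 54.6 in the rest of IL-2-KO. Those 2 libraries also held Cd4 at 38.6 and 45.5 CPM, against 0.461 to 2.48 in the other 6.

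The study compared CD8 T cells of animals without interleukin-2 with WT cells. Runx2 was higher in IL-2-KO by 2.96-fold and Runx1 was lower, at 0.715 of its WT level, while Runx3 and Cbfb did not pass the test. Of 11530 genes tested 2211 passed (19.2%), 1285 of them higher (11.1%) and 926 lower (8.03%). Without WT replicate 3 the count was 1285, and without WT replicate 4 it was 1351. Of the members 1 of 4 was higher and 1 of 4 lower. The groups did not overlap for 2 of 4 members, against 2786 of all genes tested (24.2%). In bulk samples such as these, fewer cells of a type and less RNA per cell cannot be told apart.

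Runx2 (Entrez 12393, GRCm38 chr17:44495987-44814797, minus strand) stood at 19.8, 29.1, 21.8 and 28.2 CPM in WT replicates 1 to 4. In IL-2-KO replicates 1 to 4 it stood at 51.9, 73.0, 89.3 and 85.1 CPM. Every IL-2-KO library lay above every WT library, and IL-2-KO replicate 1 was the lowest of its group. The mean went from 24.7 ± 4.60 to 74.8 ± 16.8 CPM, a log2 change of 1.57 (SE 0.18, 95% confidence interval from 1.16 to 1.97, limma adjusted p = 3.41e-04). Only 233 of the 11530 genes (2.02%) had a log2 change at least as high. Each value rested on 331 to 1661 counts. Among the libraries of over 2 M sorted cells the log2 change was 1.34 (limma adjusted p = 0.0198, 2 against 2), and among those of under 2 M it was 1.80 (limma adjusted p = 0.0145). Exons of Runx2 share 519 bases with the antisense gene Runx2os1 in GENCODE annotation, and since the strand setting of the counting is not given, reads of the antisense partner cannot be told apart from those of Runx2.

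Runx1 (Entrez 12394, GRCm38 chr16:92601466-92826074, minus strand) stood at 68.9, 83.4, 84.4 and 75.8 CPM in WT replicates 1 to 4. In IL-2-KO it stood at 61.9, 44.1, 63.8 and 54.6 CPM. All 4 IL-2-KO libraries lay under all 4 WT libraries, with WT replicate 1 and IL-2-KO replicate 3 nearest to each other. The mean went from 78.1 ± 7.25 to 56.1 ± 8.91 CPM, and the log2 value fell by 0.48 (SE 0.12, 95% confidence interval from -0.75 to -0.21, limma adjusted p = 0.0206). A change at least as low was found in 584 genes (5.07%). The log2 change was -0.53 (limma adjusted p = 0.26) in the libraries of over 2 M cells and -0.44 (0.157) in those of under 2 M, so the call did not hold within either class. The call also went when WT replicate 3 (-0.45) or WT replicate 4 (-0.50) was left out and after removal of GC content and length trends (-0.45, limma adjusted p = 0.0554). Exons of Runx1 share 106 bases with the antisense gene Gm26626.

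Runx3 (Entrez 12399, GRCm38 chr4:135120645-135177990, plus strand) stood at 148.9, 124.1, 169.9 and 159.95 CPM in WT replicates 1 to 4. In IL-2-KO it stood at 175.2, 197.3, 147.3 and 219.3 CPM. The groups overlapped, since IL-2-KO replicate 3 lay under 3 of 4 WT libraries. Means were 150.7 ± 19.7 and 184.8 ± 30.8 CPM, a 1.22-fold difference (log2 0.29, SE 0.13, 95% confidence interval from -0.01 to 0.58) that did not pass (limma adjusted p = 0.159). The lowest value of each group came from the libraries with the most myeloid, dendritic and Cd4 transcripts, WT replicate 2 and IL-2-KO replicate 3. Without those 2 libraries the log2 change was 0.30 (limma adjusted p = 0.0672), and their part in the result was not tested further. With limma's array weights, which give less weight to libraries that stand apart, it was 0.32 and passed (adjusted p = 0.0112). In that fit 4359 of the 11530 genes passed, against 2211 in the reported fit.

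Cbfb (Entrez 12400, GRCm38 chr8:105170674-105217989, plus strand) stood at 255.05, 276.2, 269.3 and 253.1 CPM in WT replicates 1 to 4. In IL-2-KO it stood at 252.5, 296.2, 236.1 and 296.7 CPM. The IL-2-KO libraries spread to both sides of the WT range. Means were 263.4 ± 11.2 and 270.4 ± 30.8 CPM, with a log2 change of 0.03 (95% confidence interval from -0.16 to 0.23, limma adjusted p = 0.836), and the direction flipped to -0.015 without IL-2-KO replicate 4 and to -0.015 without IL-2-KO replicate 2. With 3277 to 5308 counts per library, counting depth was the highest of the 4 members.

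**Figure D1:**
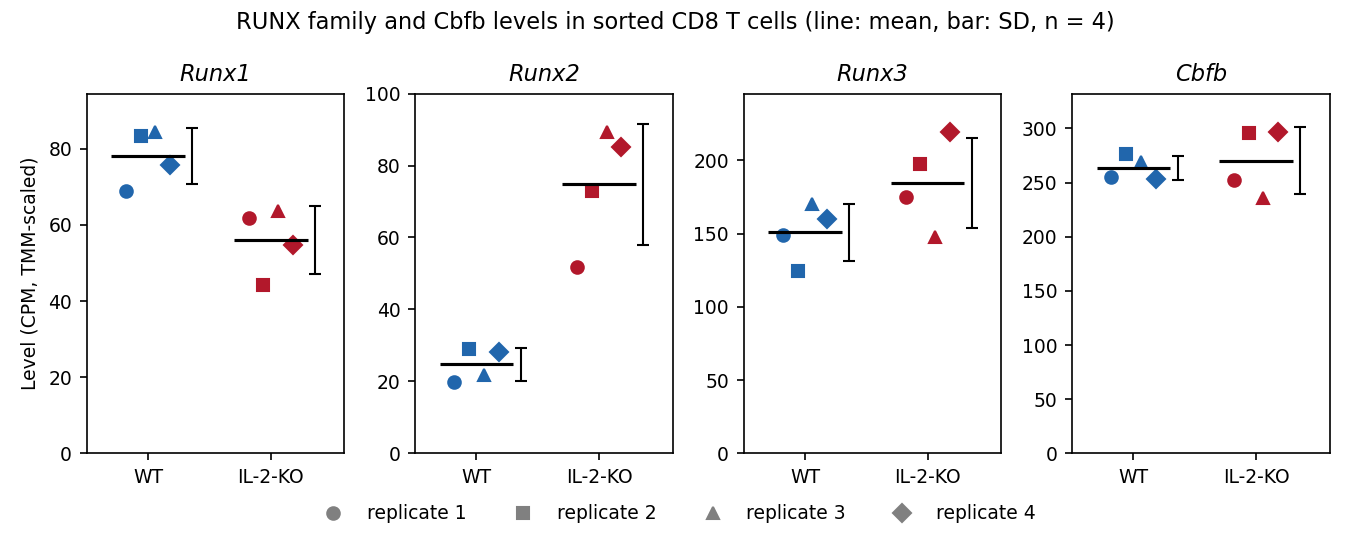
Level of Runx1, Runx2, Runx3 and Cbfb in each library (TMM-scaled CPM, linear axis from 0), WT in blue and IL-2-KO in red, with a marker shape per replicate number a line at the group mean and a bar of 1 SD to either side (n = 4). Runx2 lies at 19.8 to 29.1 in WT and 51.9 to 89.3 in IL-2-KO, Runx1 at 68.9 to 84.4 and 44.1 to 63.8, and the groups overlap for Runx3 and Cbfb.

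To compare the genes with each other, CPM was divided by the exon length of each gene in kb (12025 bases for Runx1, 8837 for Runx2, 5003 for Runx3 and 3480 for Cbfb). In WT, Cbfb was the highest at 75.7 ± 3.21 CPM per kb, followed by Runx3 at 30.1 ± 3.94, Runx1 at 6.50 ± 0.603 and Runx2 at 2.80 ± 0.520. In IL-2-KO, Cbfb stood at 77.7 ± 8.86 and Runx3 at 36.9 ± 6.15 CPM per kb, and Runx2 at 8.47 ± 1.90 now stood above Runx1 at 4.67 ± 0.741. No neighbours in either order overlapped in their library values. On this scale the places of Runx1 and Runx2 were thus exchanged, with Runx2 at 5.87 to 10.1 and Runx1 at 3.67 to 5.30 CPM per kb in IL-2-KO. In CPM without the division, Runx2 lay under Runx1 in IL-2-KO replicate 1 (51.9 against 61.9) and above it in replicates 2, 3 and 4. Exon length counts all annotated exons, so a gene that uses few of them is understated.

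The make-up of the summed RUNX transcripts moved with these levels. Runx1 made up 16.6 ± 2.18% of the summed RUNX CPM per kb in WT and 9.50 ± 2.35% in IL-2-KO. Runx2 made up 7.18 ± 1.73% and 17.0 ± 4.07%. Runx3 stayed the main member in every library, at 76.2 ± 3.69% in WT and 73.5 ± 5.27% in IL-2-KO, with overlapping groups. The summed RUNX level was 35.04 to 43.5 CPM per kb in WT and 44.9 to 58.0 in IL-2-KO, without overlap. Cbfb per unit of summed RUNX was 1.94 ± 0.235 in WT and 1.55 ± 0.0815 in IL-2-KO, also without overlap, although Cbfb itself did not pass the test. These shares and sums describe RNA per kb of annotated exon, not amounts of protein, and were not tested.

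**Figure D2:**
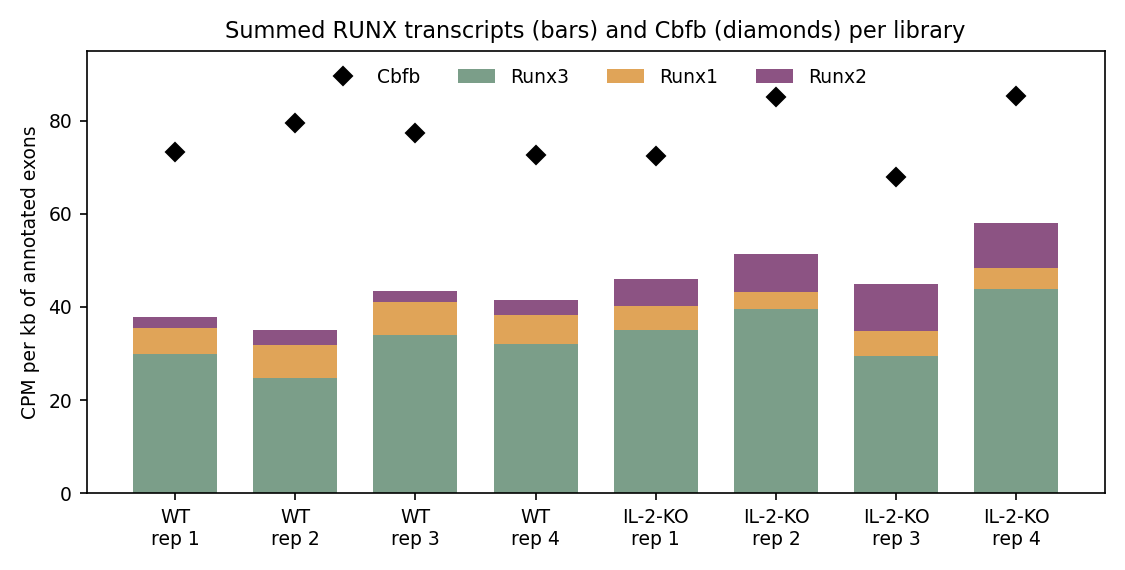
CPM per kb of annotated exon in each library (linear axis from 0), with Runx3 (green), Runx1 (orange) and Runx2 (purple) stacked in bars and Cbfb as black diamonds. The bars reach 35.04 to 43.5 in WT and 44.9 to 58.0 in IL-2-KO, Runx3 is the largest part of each, and the Runx2 part is the smallest in every WT library and exceeds the Runx1 part in every IL-2-KO library.

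The ratio of Runx3 to Runx1, read within each library so that library scaling cancels, was 2.16, 1.49, 2.01 and 2.11 in WT replicates 1 to 4. In IL-2-KO it was 2.83, 4.47, 2.31 and 4.01. Every IL-2-KO library lay above every WT library, IL-2-KO replicate 3 only slightly so. On the log2 scale the mean went from 0.94 ± 0.25 to 1.72 ± 0.44, a difference of 0.78 or 1.71-fold (exact two-sided permutation p = 0.0286, the smallest that 70 assignments allow). The difference was 0.99 within the libraries of over 2 M cells and 0.56 within those of under 2 M, where the smallest exact p for 2 against 2 is 0.333. Leaving out any single WT library raised the exact permutation p to 0.0571. The ratio of Runx2 to Runx1 was 0.288, 0.349, 0.258 and 0.371 in WT and 0.838, 1.65, 1.40 and 1.56 in IL-2-KO. It too did not overlap, with IL-2-KO replicate 1 well under the other 3. The ratio of Runx3 to Runx2 was 6.31 ± 1.66 in WT and 2.58 ± 0.711 in IL-2-KO.

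**Figure D3:**
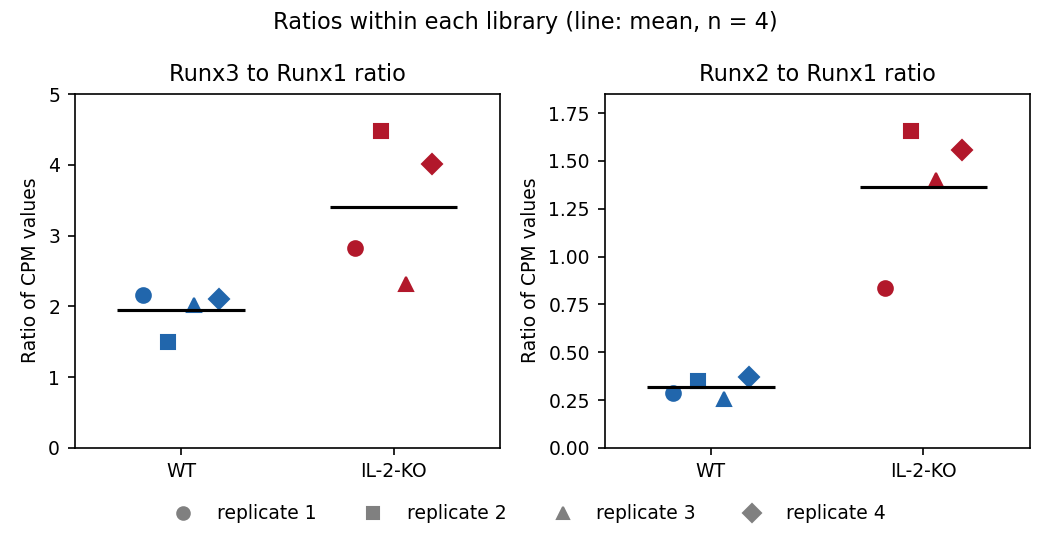
Ratio of Runx3 to Runx1 (left) and of Runx2 to Runx1 (right) of CPM values within each library, WT in blue and IL-2-KO in red, with lines at the means (n = 4). The left ratios run from 1.49 to 2.16 in WT and from 2.31 to 4.47 in IL-2-KO, and the right ratios from 0.258 to 0.371 and from 0.838 to 1.65.

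**Figure D4:**
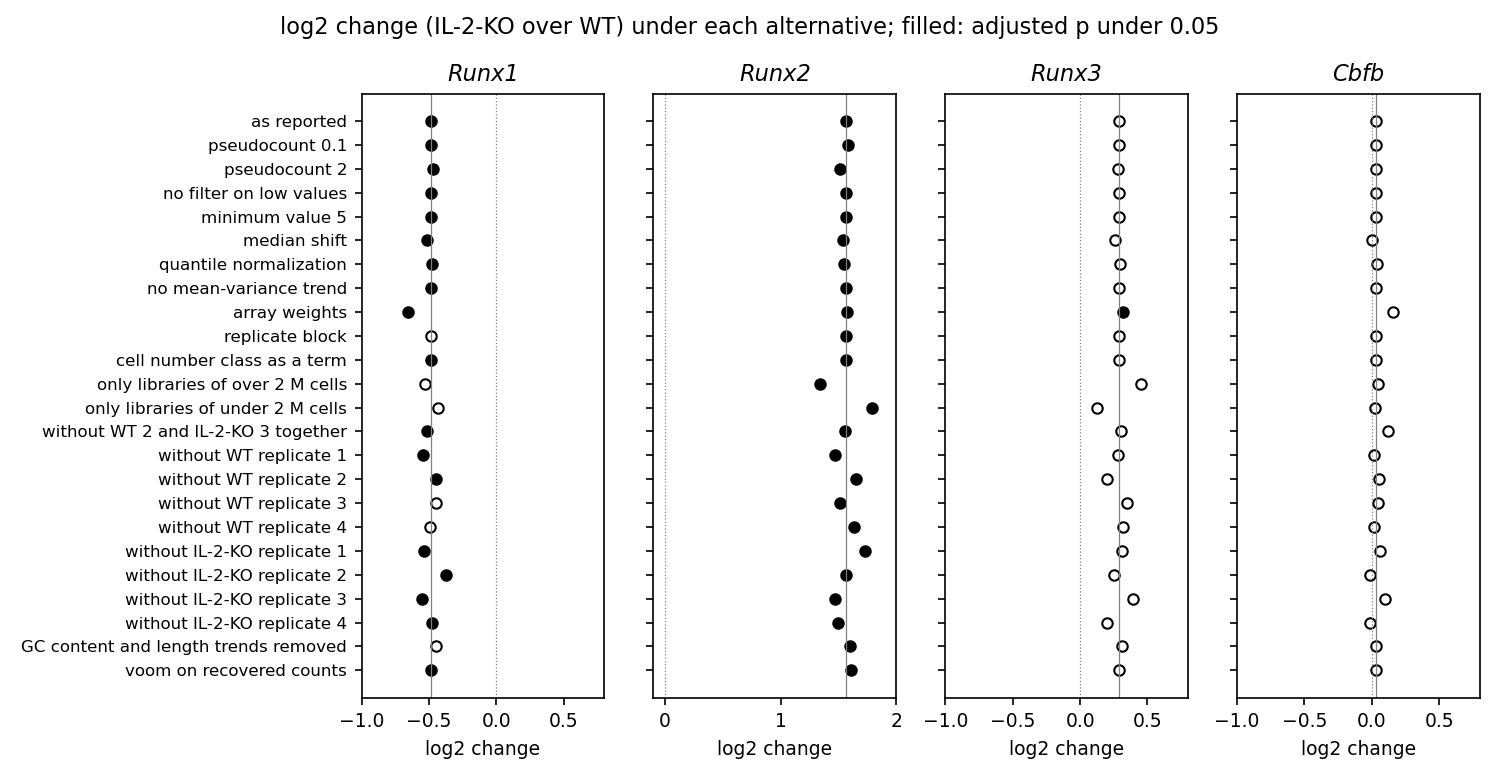
Log2 change of each member (IL-2-KO against WT) in the reported fit and in each of 23 alternative fits, filled where the adjusted p is under 0.05, with a grey line at the reported value and a separate axis range for Runx2. Runx2 stays above 0 and passes in 23 of 23, Runx1 stays under 0 and passes in 17, Runx3 passes in 1 and Cbfb in 0.

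Of 24 listed proteins that work with RUNX factors 23 were tested, 1 was higher, 2 were lower and 20 did not pass, where 11.1% of all genes tested were higher and 8.03% lower (median log2 change -0.047, against -0.0097 for all genes). The log2 value of Tle1, a Groucho corepressor that binds the end of RUNX proteins, fell by 1.01 (9.34 ± 2.13 to 4.33 ± 0.575 CPM, limma adjusted p = 0.0032). Suv39h1, a histone H3 methyltransferase reported to bind RUNX proteins, rose 1.31-fold (52.7 ± 4.27 to 69.1 ± 5.19 CPM, 0.0121). The log2 value of Fli1, an Ets factor, fell by 0.29 (129.9 ± 13.8 to 105.6 ± 7.64 CPM, 0.0449), a call lost in 13 alternatives. Smad3, the signal carrier of the TGF-beta pathway, stood at 76.2 ± 4.72 and 102.5 ± 21.1 CPM without overlap but did not pass (0.0539). Of 5 ubiquitin ligases that target RUNX proteins 1 was lower (8.03% of all genes tested). The log2 value of Smurf1 fell by 0.36 (107.2 ± 12.5 to 82.8 ± 0.545 CPM, limma adjusted p = 0.0167), and Smurf2, Wwp1, Nedd4 and Stub1 did not pass. The Smurf1 call was lost without WT replicate 1 (adjusted p = 0.0522), WT replicate 3 (0.0573) or WT replicate 4 (0.0527).

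Of 15 genes known to be activated by RUNX factors in cytotoxic T cells, 6 were higher (Gzmb, Eomes, Tbx21, Il2rb, Itgal and Ifng), 0 were lower and 9 did not pass, with a median log2 change of 0.46. Of all genes tested 11.1% were higher and 8.03% lower. Gzmb, the granule protease, rose 18.4-fold (0.750 ± 0.293 to 26.1 ± 19.8 CPM, limma adjusted p = 1.10e-04), with IL-2-KO replicate 3 at 55.6 and the other 3 at 14.4 to 19.1. Its fold depends on the pseudocount, since WT values were near 1 CPM: it was 27.3-fold with 0.1 and 8.84-fold with 2 in place of 0.5, and it passed with both. Eomes and Tbx21, the T-box factors of effector and memory cells, rose 2.18-fold (0.00184) and 2.41-fold (0.00285). Il2rb, the beta chain of the interleukin-2 receptor, rose 2.11-fold (0.0117). Ifng, the cytokine interferon gamma, rose 3.16-fold (0.0311), with overlapping groups, IL-2-KO replicate 3 at 39.3 CPM and a call lost without any of WT replicates 1, 3 and 4 and IL-2-KO replicates 2 and 3. Prf1, which encodes perforin, the coreceptor genes Cd8a and Cd8b1, and Itgae, the integrin CD103, did not pass. Cd8a stood at 1840.0 ± 131.5 and 1660.0 ± 186.9 CPM, and Itgae at 154.8 ± 24.1 and 117.8 ± 42.6. Cd8b1 stood at 1120 ± 184.3 and 860.4 ± 94.4 CPM (limma adjusted p = 0.072). It passed as lower with array weights and after removal of GC content and length trends. It also did so without WT replicate 2, alone or together with IL-2-KO replicate 3. The cells were sorted as CD8 T cells, which constrains Cd8a and Cd8b1, so these coreceptor genes do not inform on RUNX action. Eomes is also among the natural killer cell markers, of which 4 of 7 were in the table and summed to 108 to 158 CPM in WT and 321 to 588 in IL-2-KO, most of it Eomes itself and Gzma (3.30 ± 1.49 to 128.6 ± 38.7 CPM). Of the other markers in the table, Klre1 rose from 1.42 ± 1.16 to 6.43 ± 4.73 CPM (limma adjusted p = 0.0352), and Klrb1c stood at 1.19 ± 1.09 and 1.84 ± 0.538 CPM and did not pass (0.268). Their part in the list's count was not tested. The list counted 4 genes higher without WT replicate 1, WT replicate 3 or IL-2-KO replicate 2. It counted 8 higher and 1 lower (Cd8b1) with both WT replicate 2 and IL-2-KO replicate 3 left out. With array weights it counted 8 higher and 2 lower, where 2240 and 2119 of all 11530 genes were higher and lower.

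Of 9 genes known to be repressed by RUNX factors in T cells 7 were tested, 3 were higher, 0 were lower and 4 did not pass (median log2 change 0.60), beside 11.1% higher and 8.03% lower among all genes tested. The 3 were Cxcr5, the follicle-homing receptor (15.0 ± 4.07 to 32.4 ± 5.55 CPM, limma adjusted p = 0.00346), Socs3, a cytokine signalling inhibitor (54.0 ± 21.4 to 135.4 ± 33.1 CPM, 0.00354), and Bcl6, the follicular helper repressor (18.4 ± 1.47 to 29.8 ± 6.71 CPM, 0.0152, lost without WT replicate 4). Cd4 and Zbtb7b, the helper-lineage genes that Runx3 silences in CD8 cells, did not pass. Cd4 was at 0.461 to 2.48 CPM outside WT replicate 2 and IL-2-KO replicate 3. Sorting for CD8 T cells also constrains Cd4, so its level does not inform on silencing by Runx3. Zbtb7b stood at 4.97 ± 5.31 and 5.33 ± 3.57 CPM, with those libraries at 12.8 and 10.4 and the rest at 1.32 to 5.12. Tcf7, the factor of naive and memory precursor cells, stood at 1222 ± 79.0 and 1256 ± 125.2 CPM and did not pass (0.834), with its sign turning under quantile scaling.

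Among 6 tested genes of 12 other RUNX1 targets of blood cells 1 was higher and 1 lower (11.1% and 8.03% of all genes tested). Ctla4, the inhibitory receptor, rose 6.75-fold (limma adjusted p = 0.00447), from 5.79 to 30.8 CPM in WT libraries to 51.5 to 170.9 in IL-2-KO libraries. Itga2b, the platelet integrin chain CD41, had a log2 value that fell by 0.83 (0.0354), and its call went when any WT library or IL-2-KO replicate 2 or 4 was left out, and the other 4 of the list did not pass. Itga2b is also 1 of the 5 erythroid and platelet markers in the table (of 8 listed), which summed to 21.6 to 79.5 CPM in WT and 13.8 to 37.3 in IL-2-KO. The log2 changes of the other 4 markers were -1.08 for Hba-a1, -1.43 for Hbb-bs, -0.28 for Alas2 and -0.68 for Gp1ba, none of which passed, and their part in the Itga2b result was not tested. Of 13 partner factors of T cell lineage choice 1 passed, beside 19.2% of all genes tested: the log2 value of Lef1, a Wnt-pathway factor of naive cells, fell by 0.69 (382.2 ± 46.1 to 236.9 ± 18.8 CPM, limma adjusted p = 9.98e-04). Of 8 bone-type targets of Runx2, 2 were tested: Alpl, alkaline phosphatase, rose 1.47-fold (36.8 ± 7.0 to 53.7 ± 4.46 CPM, limma adjusted p = 0.0168, lost without WT replicate 4), and Col1a1, bone collagen, stood at 1.80 ± 1.80 and 1.74 ± 0.480 CPM. Stromal and bone markers, 2 of 8 in the table, summed to 189 to 214 CPM in WT and 177 to 205 in IL-2-KO. Nearly all of this was Pecam1 (202.5 ± 10.8 and 189.9 ± 12.5 CPM) and little was Col1a1, so the sum does not measure bone transcripts. The lists were written from general knowledge with earlier results of these data known, so their counts are no independent support.

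**Figure D5:**
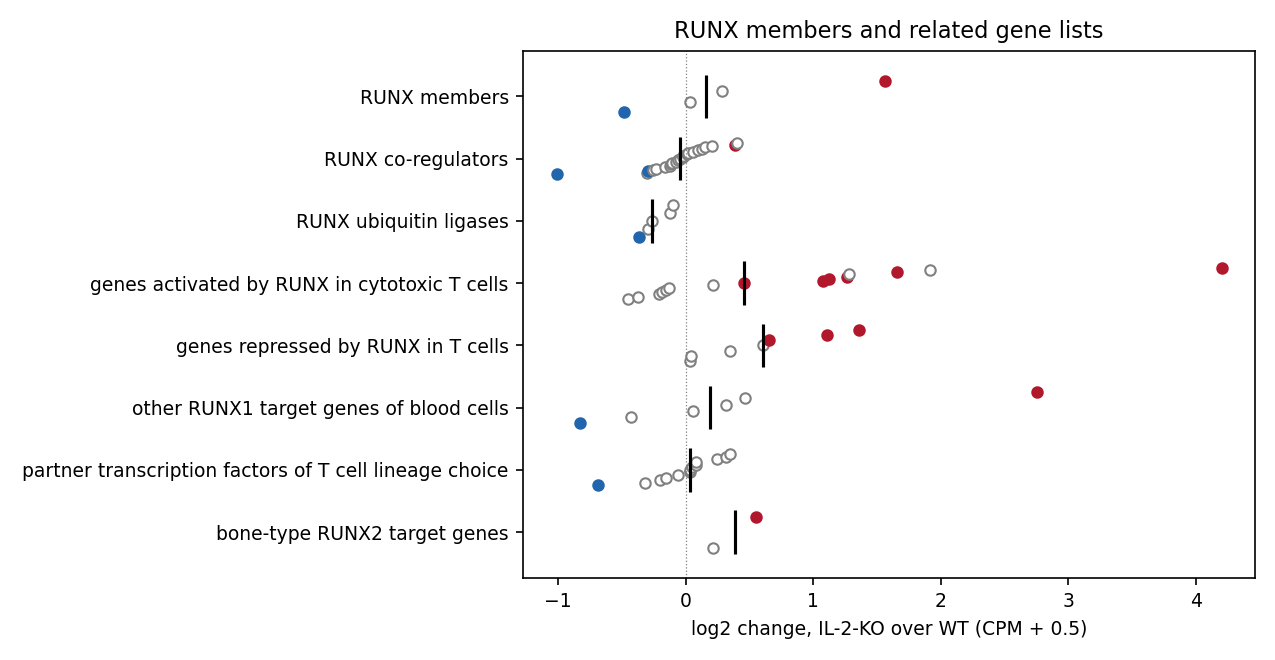
Log2 change (IL-2-KO against WT) of each tested gene among the RUNX members and in the lists of RUNX co-regulators, ligases, targets and partner factors, red for higher and blue for lower genes that passed, open for those that did not, with a black line at the list median. Medians run from -0.264 for the ligases to 0.604 for the repressed targets (-0.0097 over all genes tested).

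The genes whose centred log2 values over the 8 libraries came nearest to a member's were ranked among 9065 candidates by root mean square difference. For Runx2 they were Fancd2, a DNA crosslink repair gene (0.12), Nusap1, a spindle protein gene (0.17), and Eea1, an early endosome tether (0.17). Each was higher in IL-2-KO without overlap, which follows from their choice by likeness to Runx2 over all 8 libraries. For Runx1 they were Rab4a, a recycling endosome GTPase (0.096), Gabbr1, a GABA receptor subunit (0.098), and Mex3b, an RNA-binding ubiquitin ligase (0.10). For Runx3 they were Vmn2r53 (0.062), Zfp280b (0.066) and Senp1, a SUMO protease (0.075), and for Cbfb they were Spin1 (0.034), Eif3m, a translation initiation factor (0.037), and Selenot (0.038). Between members, Runx3 and Cbfb were nearest (0.20) and Runx1 and Runx2 farthest (1.07).

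The nearest tested genes on the chromosome were read for the same comparison. Next to Runx1, the log2 value of Setd4, a methyltransferase gene, fell by 0.57 (59.8 ± 1.56 to 40.3 ± 3.23 CPM, limma adjusted p = 8.67e-04), and Rcan1 did not pass. Next to Runx3, Clic4, a chloride channel family gene, rose 2.25-fold (27.1 ± 4.91 to 62.7 ± 18.2 CPM, limma adjusted p = 0.00184), and Syf2 did not pass. Supt3, which overlaps Runx2 on the opposite strand with 0 shared exon bases, stood at 14.3 ± 1.44 and 12.8 ± 3.33 CPM and did not pass (limma adjusted p = 0.527), nor did Clic5 on the other side. Neither neighbour of Cbfb, Ciao2b and D230025D16Rik, passed.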

How the data were processed

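CD8 T cell RNA of 4 WT and 4 IL-2-KO libraries was measured by sequencing with a stranded total RNA kit, per the labels' protocols. The authors deposited a signal for each gene in each library, namely a count per 1000000 after TMM scaling, not on a log scale. Per the submitters' processing notes R 3.4.3, limma 3.34.9 and featureCounts were used, with the builds GRCm38 and mm10 named; the aligner and strand setting are not given in the sources used here. The planned test for CPM was kept. Of the low values under 20, 54.6% to 65.0% per library were whole reads (within 0.001 read), so no count test was run as the main result; library sizes were recovered from the value steps, and no molecular identifiers are mentioned, so depth covers counting error only.

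Entrez identifiers were matched to symbols (11651 matched, 72 not). The filter was a value of 1 or more in 4 or more libraries, which 11530 of 11723 genes met, and log2(value + 0.5) was tested with limma 3.58.1 in R 4.3.3, with a mean-variance trend. The ratio was tested by exact permutation. The labels call replicates 1 to 4 of each group samples of their own, and the design text calls them biological; no libraries were duplicates (lowest chi-square per gene 5.0 within a group). Scripts were tested on simulated data. The members and lists were chosen with earlier results of these data known. Genes named are the members, up to 4 per list by smallest adjusted p, a panel (Cd4, Zbtb7b, Cd8a, Cd8b1, Itgae, Prf1, Gzmb, Ifng, Tbx21, Eomes, Tcf7, Il7r, Spi1, Myb, Il2), chromosome neighbours and the 3 nearest patterns per member; Itgal and Stub1 were added after their values were seen, to complete a count. Alternatives were other pseudocounts, filters, scalings and variance models, a replicate block, classes of sorted cell number and leaving out libraries; removal of GC content and length trends and voom weights on recovered counts were added after seeing the data.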

Additional observations from a re-analysis of the deposited data

Results flagged for a closer look

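Among 142 groups of 4 library values, 12 had a library far from the other 3 by Dixon's criterion, where chance gives about 1 in 20. None was a value of a RUNX gene or of Cbfb itself. The share of Runx3 in the summed RUNX CPM per kb was 65.6% in IL-2-KO replicate 3, under the other IL-2-KO libraries at 75.6% to 76.8%. In IL-2-KO replicate 3, Gzmb stood at 55.6 CPM, Ctla4 at 171 CPM, Ifng at 39.3 CPM and Cd4 at 45.5 CPM, all above their group. In WT replicate 2, Cd4 stood at 38.6 CPM and Myb at 108 CPM, above their group, and Suv39h1 at 46.3 CPM, Zfp280b at 29.6 CPM and Senp1 at 86.0 CPM, under it. Smurf2 stood at 149 CPM in WT replicate 3, above its group, and Col1a1 at 1.02 CPM in IL-2-KO replicate 2, under it.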

How the results depend on the processing

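Runx2 kept its direction and its call in all 23 alternatives (limma adjusted p from 6.93e-06 to 0.0198). Runx1 kept its direction in all 23 and its call in 17 (adjusted p from 3.95e-04 to 0.26). Its log2 change was -0.53 in libraries of over 2 M cells, -0.44 in those of under 2 M and -0.45 after removal of GC content and length trends, each without a call, and ran from -0.55 to -0.37 with a library left out. Runx3 passed with array weights alone (0.32; adjusted p from 0.0112 to 0.759 over the alternatives). Cbfb ran from -0.015 to 0.094 with a library left out.

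The ratio of Runx3 to Runx1 differed by 0.78 with cell number class as a term (exact p = 0.0556), by 0.99 and 0.56 within the classes of over and under 2 M cells (0.333 each), and by 0.82 with both WT replicate 2 and IL-2-KO replicate 3 left out (0.1). Each of these p-values is the smallest its design allows. With a library left out the ratio ran from 0.63 to 0.95. Its exact p was 0.0571 without any single WT library and 0.0286 without any single IL-2-KO library. The count of genes that passed was 4359 with array weights, 384 and 441 within the classes of over and under 2 M cells, and 1285 to 2205 with a library left out, the lowest without WT replicate 3 and 1351 without WT replicate 4. Fewer samples enter these last fits; for the other changes the cause was not tested.

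The replicate numbers do not pair the samples: deviations of same-numbered libraries correlated at 0.08, -0.53, -0.4 and 0.39. With the replicate block 1397 genes passed, the Runx1 log2 change of -0.48 had an adjusted p of 0.0529, and the ratio difference of 0.78 had an exact paired p of 0.125, the smallest for 4 pairs.

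Of 54 other named genes 13 changed sign in some alternative, and 0 of these had passed. With a median shift Spin1 was at -0.0082 and Eif3m at -0.0034. With quantile scaling Col1a1 was at -0.033, Selenot at 0.010, Rcan1 at -0.039, Tcf7 at -0.027 and Il2 at -0.11. With array weights Selenot was at 0.14, Tcf7 at -0.0001, Nedd4 at 0.020 and D230025D16Rik at 0.018. In libraries of over 2 M cells Col1a1 was at -0.59, Selenot at 0.0051, Nedd4 at 0.098, Zbtb7b at -0.71 and Cd4 at -1.83. In those of under 2 M Rcan1 was at -0.056, Tcf7 at -0.11, Il2 at -0.015 and Vmn2r53 at -0.011. With both of those libraries left out Selenot was at 0.10, Il2 at -0.12 and D230025D16Rik at 0.019. After removal of GC content and length trends Selenot was at 0.027 and Il2 at -0.018. With a library left out Spin1 ran from -0.039 to 0.071, Eif3m from -0.028 to 0.083, Col1a1 from -0.11 to 0.68, Selenot from -0.061 to 0.069, Tcf7 from -0.013 to 0.10, Il2 from -0.10 to 0.20, Nedd4 from -0.23 to 0.030, Zbtb7b from -0.029 to 0.93, Cd4 from -0.50 to 1.83 and Il7r from -0.45 to 0.037. Of 22 other named genes that passed, 4 kept the call in every alternative run: Gzmb, Fancd2, Nusap1 and Eea1. Fancd2, Nusap1 and Eea1 had been chosen for their likeness to Runx2, so they are no separate result.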
